A study of Mus musculus with 8 samples.

Results

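Acute-phase proteins are plasma and secreted proteins whose amounts move with inflammation. The liver makes most of the circulating pool, and fibroblasts, macrophages and epithelia also make some of them locally. Interleukin-6 acting through STAT3, and interleukin-1 and TNF acting through NF-kB and C/EBP factors, are the classical inducers of their genes. The family covers several roles: serum amyloid A proteins travel on lipoproteins, haptoglobin binds free haemoglobin, lipocalin 2 binds iron-loaded siderophores, ceruloplasmin is a copper ferroxidase, complement C3 is the hub of the complement cascade, and the A3 serpins inhibit serine proteases.

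The genes described are 10 acute-phase genes listed by symbol: Saa1, Saa2, Saa3, Hp, Lcn2, C3, Cp, Orm1, Serpina3g and Serpina3n. They were selected with their levels in all 4 conditions known, so their values and differences are a description and no p-value is attached to them. For each gene the row whose mm9 position covered the annotated gene best was taken, provided that the shared stretch made up 0.5 or more of the combined span. This gave 8 of the 10 genes a value in all 8 samples, out of 20197 genes of the whole series. The overlap was between 0.922 and 1 for these 8 genes. Serpina3g and Serpina3n had no row of their own, because the assembly joined them with their neighbours into 1 locus, whose shared stretch with each was 0.0285 and 0.038 of the combined span in Control replicate 1, and only a joint value could be given. An FPKM of 1 or more in 2 or more samples, the limit for a gene to enter the fit, was reached by 7 of the 10 genes. Saa1 reached it through the 4 samples with Hh-CM only, and Saa2 through the 2 Esrrb+Hh-CM samples only. Orm1 did not reach it.

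The samples are polyA RNA-Seq libraries of NIH3T3, a line of mouse embryo fibroblasts that answers to Hedgehog ligand, with 2 samples in each of 4 groups. Control cells carry the empty vector (NIH3T3-pc3.1) and received vehicle, and Hh-CM cells carry the same vector and received 1% Hh-CM. Esrrb cells (NIH3T3-Esrrb) carry the expression vector of Estrogen related receptor beta, an orphan nuclear receptor, with vehicle, and Esrrb+Hh-CM cells carry that vector and received 1% Hh-CM. Hh-CM is medium of HEK293 cells, a human kidney line, that express the N-terminal part of Sonic Hedgehog. It was used at 1 in 100 for 48 h, and the vehicle was medium of HEK293 cells without that transgene at the same dilution. The treatment was done in 5% newborn calf serum. Both lines had been established by zeocin selection, and the cells of independent transfections were pooled. The study's methods call the 2 samples of a group biological replicates. The p-values measure the spread between such samples, estimated over all 4 groups together. Because the transfections were pooled, the p-values hold no spread between separately established lines. An effect of the Esrrb vector and a difference between the 2 lines cannot be told apart.

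The labels were first checked on Hedgehog targets. Gli1 had an FPKM (fragments per unit length of transcript, relative to all mapped fragments of the library) of 0.0217 to 0.106 in the 4 vehicle samples and of 26.8 to 34.8 in the 4 Hh-CM samples, and Ptch1 rose with Hh-CM by 3.73 and 3.93 log2 units in the 2 cell lines (limma adjusted p = 3.38e-05 and 2.42e-05). Esrrb itself is listed at 0 in 6 of the 8 samples, including all 4 that carry its vector, and at 0.0281 and 0.0203 in the Hh-CM samples, so the vector cannot be checked in these tables. The tables of Esrrb replicate 1 and Hh-CM replicate 2 shared 8080 numbered loci with the same number and position, against at most 106 for any other pair, yet no FPKM above 0 was equal between them. Depth relative to Control replicate 1 ran from 0.743 to 1.54. Fibroblast markers summed to 4935 to 5768 FPKM. Leukocyte markers summed to 2.16 to 2.77 in Control, 3.62 to 3.91 in Hh-CM, 2.28 to 2.85 in Esrrb and 2.65 to 3.39 in Esrrb+Hh-CM samples, with 6 of 8 below 1 in every sample and Cd3e at 0. Of the hepatocyte markers, 5 of 6 had a locus in all samples and summed to at most 0.0934, with Alb, Ttr and Cyp3a11 at 0 in every sample. Serpina1a, also listed, had a locus in only 3 samples and is not in this sum. The paper lists it as higher in Esrrb than in Control cells, so this marker cannot be called absent.

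The 3 serum amyloid genes lie within 1 stretch of chromosome 7, and their upstream sequences are shown because the genes gave 3 different patterns. In mm9 coordinates Saa3 spans 53967368 to 53971046 and Saa1 spans 53995871 to 53998350, both on the minus strand, and Saa2 spans 54007203 to 54009684 on the plus strand. The 250 bases before each start site, 5′ to 3′, are from RefSeq on GRCm38.p6, at chr7:46742981-46743230 (minus strand) for Saa1, chr7:46751583-46751832 (plus strand) for Saa2 and chr7:46715677-46715926 (minus strand) for Saa3. The window of C3, an abundant member that also holds a match, is at chr17:57228137-57228386 on the minus strand. Capitals mark matches to the C/EBP motif, searched as TTNNGNAAT on both strands.
Saa1: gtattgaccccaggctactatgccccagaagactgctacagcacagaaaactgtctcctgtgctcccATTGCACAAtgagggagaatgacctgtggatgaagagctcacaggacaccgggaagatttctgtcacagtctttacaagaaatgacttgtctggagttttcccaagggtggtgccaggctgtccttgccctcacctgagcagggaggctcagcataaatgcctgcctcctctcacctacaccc
Saa2: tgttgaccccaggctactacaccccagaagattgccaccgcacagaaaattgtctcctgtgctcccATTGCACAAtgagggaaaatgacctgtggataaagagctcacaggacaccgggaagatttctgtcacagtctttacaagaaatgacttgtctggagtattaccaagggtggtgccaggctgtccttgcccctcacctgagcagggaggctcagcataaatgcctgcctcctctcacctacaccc
Saa3: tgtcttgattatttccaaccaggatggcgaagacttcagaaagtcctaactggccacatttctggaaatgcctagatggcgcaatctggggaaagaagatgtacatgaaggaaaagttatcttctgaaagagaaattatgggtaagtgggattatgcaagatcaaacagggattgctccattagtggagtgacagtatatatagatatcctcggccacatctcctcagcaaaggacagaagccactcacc
C3: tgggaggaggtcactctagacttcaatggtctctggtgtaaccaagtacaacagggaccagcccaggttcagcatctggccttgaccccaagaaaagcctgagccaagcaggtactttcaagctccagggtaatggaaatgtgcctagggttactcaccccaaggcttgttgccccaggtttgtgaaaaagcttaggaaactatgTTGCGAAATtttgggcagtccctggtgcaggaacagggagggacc

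The Saa1 and Saa2 windows were 94.8% identical and carried the same C/EBP match, 183 to 175 bases before the start of Saa1 and 184 to 176 before that of Saa2. The Saa3 window was 52.2% identical to that of Saa1 and held no match, and the C3 match lay 45 to 37 bases before its start. The C/EBP letters occur in 10.2% of 32851 mouse promoter windows of this length. STAT (TTCNNNGAA, in 7.02% of windows), Gli (TGGGTGGTC, 0.225%), ERR (TCAAGGTCA, 0.387%) and the NF-kB consensus (3.9%) had no match in the 4 windows shown. Of the 8 members with a window in the RefSeq table, Serpina3g held 1 STAT and 1 NF-kB match, Serpina3n held 2 C/EBP matches, and Lcn2 and Cp held none. Hp and Orm1 were not in that table. A match is a run of letters only and does not show binding. The coding sequences of Saa1 and Saa2 were 95.1% identical and their transcripts shared a run of 76 bases, whereas Saa3 was 77.1% and 75.8% identical to them. Reads of Saa1 and Saa2 may thus have been divided between them, so the values of these 2 genes are uncertain.

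Saa3, the serum amyloid A form made outside the liver, was the most abundant member and ranked 77 of 20195 gene symbols by mean FPKM. Its FPKM was 1351 and 1265 in Control cells, 340.1 and 344 in Hh-CM cells, 2492 and 2476 in Esrrb cells, and 863 and 832 in Esrrb+Hh-CM cells. The 4 groups did not overlap, and their order was Esrrb, Control, Esrrb+Hh-CM and Hh-CM, with the Esrrb samples at rank 21 by group mean. Hh-CM was accompanied by a level 73.8% lower in control-vector cells and 65.9% lower in Esrrb-vector cells, or −1.93 and −1.55 log2 units (SE 0.0418). With the Esrrb vector the level was 1.9-fold that of Control in vehicle and 2.48-fold that of Hh-CM cells in Hh-CM. The log2 difference for Hh-CM in Esrrb-vector cells minus that in control-vector cells was 0.38 (SE 0.0592). Saa3 in Esrrb+Hh-CM cells was 35.2% below Control, so that both the Hh-CM and the vector difference were visible in the same cells. In bulk RNA, fewer cells making a transcript and less transcript per cell cannot be told apart.

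Saa1, a circulating form of serum amyloid A, went the other way at far lower level. Its FPKM was 0.386 and 0.723 in Control, 3.12 and 3.67 in Hh-CM, 0.544 and 0.635 in Esrrb, and 7.16 and 4.26 in Esrrb+Hh-CM cells. All 4 samples with Hh-CM were above all 4 samples with vehicle. The means with Hh-CM were 6.13-fold those of Control and 9.69-fold those of Esrrb cells, with log2 differences of 2.46 and 3.03 (SE 0.34). Control and Esrrb samples overlapped, and the 2 Esrrb+Hh-CM samples lay above the Hh-CM samples but differed from each other more than the Hh-CM samples did.

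Saa2, the close copy of Saa1, stayed near 1 FPKM or below. Its values were 0.613 and 0.522 in Control, 0.276 and 0.796 in Hh-CM, 0.72 and 0.315 in Esrrb, and 1.45 and 1.13 in Esrrb+Hh-CM cells. The first 3 groups overlapped, and only the Esrrb+Hh-CM samples stood above the rest, with deposited confidence intervals of 0.162 to 2.75 and 0 to 2.27 that cover the other groups.

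**Figure D1:**
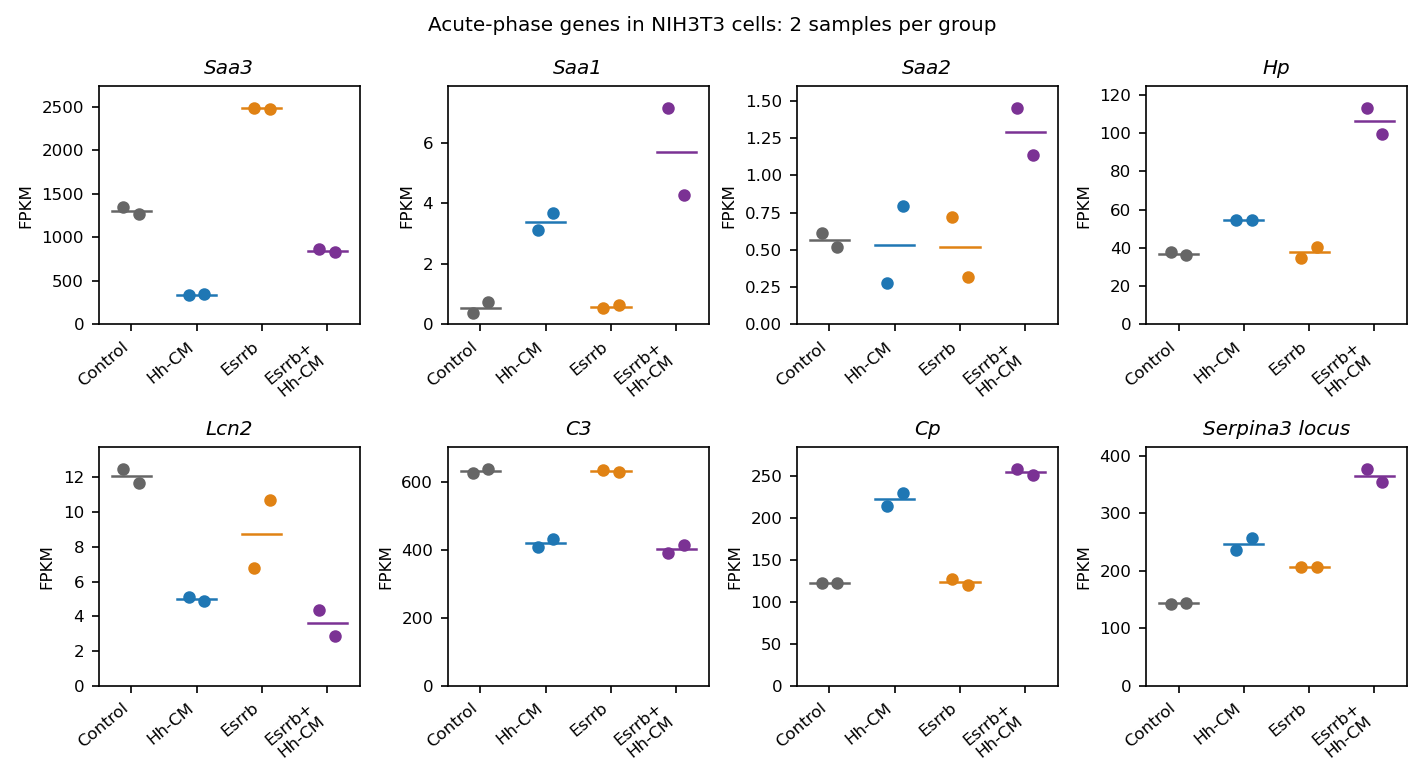
FPKM of 7 acute-phase genes and of the joined Serpina3 locus (y axes, linear from 0, a scale per panel) in the 4 groups (x axes). Points are the 2 samples of a group and lines their mean: Saa3 runs from 340.1 to 2492, and the Hh-CM groups are lower in Saa3, Lcn2 and C3 and higher in Saa1, Hp, Cp and the Serpina3 locus.

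Hp, which encodes haptoglobin, lies on chromosome 8 from 112099030 to 112103072 in mm9. Its FPKM was 37.6 and 36 in Control, 54.5 and 54.6 in Hh-CM, 34.8 and 40.6 in Esrrb, and 113 and 99.6 in Esrrb+Hh-CM cells. Control and Esrrb overlapped, Hh-CM lay above both, and Esrrb+Hh-CM lay above every other sample. The level with Hh-CM was 1.48-fold that of Control in control-vector cells and 2.82-fold that of Esrrb in Esrrb-vector cells. The log2 differences were 0.57 and 1.5 (SE 0.0914), and the second exceeded the first by 0.93 (SE 0.129). With the Esrrb vector the log2 difference was 0.03 in vehicle and 0.96 in Hh-CM. In Control replicate 2 and Hh-CM replicate 1 the FPKM lay above its own deposited confidence interval, 28.8 to 35.1 and 44.1 to 51.7. Whether this bears on the differences was not tested.

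Cp encodes ceruloplasmin, which oxidises iron on leaving the cell, and spans 19857054 to 19909145 of chromosome 3. Its FPKM was 122 and 122 in Control, 214 and 230 in Hh-CM, 127 and 120.5 in Esrrb, and 258 and 251 in Esrrb+Hh-CM cells. All samples with Hh-CM were above all samples with vehicle, by 1.82-fold without and 2.06-fold with the Esrrb vector. Control and Esrrb overlapped, and Esrrb+Hh-CM was 14.6% above Hh-CM with no overlap. The log2 differences for Hh-CM were 0.86 and 1.04 (SE 0.0473).

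Lcn2, which encodes the siderophore-binding lipocalin 2, spans 32240153 to 32243317 of chromosome 2. Its FPKM was 12.5 and 11.7 in Control, 5.1 and 4.86 in Hh-CM, 6.76 and 10.7 in Esrrb, and 4.36 and 2.84 in Esrrb+Hh-CM cells. The 4 samples with Hh-CM were below the 4 samples with vehicle, by 58.8% in each of the 2 cell lines. The Esrrb samples were both below Control, and their FPKM differed more from each other than those of any other group. In the lower of them, replicate 1, the locus had the same ends as in the other groups, and in replicate 2 it reached further upstream, to 32243583. Whether this bears on the gap between them was not tested.

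C3, the central complement protein, spans 57343397 to 57367559 of chromosome 17 and ranked 135 of all symbols. Its FPKM was 627 and 638 in Control, 409 and 433 in Hh-CM, 635 and 628 in Esrrb, and 392 and 414 in Esrrb+Hh-CM cells. The samples with Hh-CM formed 1 set and the samples with vehicle another, and the Esrrb vector left overlapping values in both. The level with Hh-CM was 33.4% lower in control-vector and 36.2% lower in Esrrb-vector cells, or −0.59 and −0.65 log2 units (SE 0.0429).

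The A3 serpins Serpina3g and Serpina3n, at 105474455 to 105480149 and 105644939 to 105652539 of chromosome 12, could be read only together. The joined locus covered 7 protein-coding Serpina3 genes in 6 samples, and 9 in Hh-CM replicate 1 and Esrrb replicate 2, where it began further upstream. Its FPKM was 143 and 145 in Control, 237 and 257 in Hh-CM, 207 and 207 in Esrrb, and 377 and 354 in Esrrb+Hh-CM cells. The 4 groups did not overlap, and the order was Control, Esrrb, Hh-CM and Esrrb+Hh-CM. The means with Hh-CM were 1.72-fold and 1.76-fold those of the matching vehicle cells, and the Esrrb vector went with 1.44-fold and 1.48-fold levels. Which of the genes carried the reads cannot be told from these values. The paper, with its own quantification, lists Serpina3n and Serpina3m separately, both as higher in Hh-CM than in Control cells.

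Orm1, which encodes orosomucoid, spans 63005594 to 63009197 of chromosome 4 and is listed at 0 in 5 of 8 samples. Control replicate 1 had 0.11, Hh-CM replicate 2 had 0.287 and Esrrb+Hh-CM replicate 2 had 0.0743 FPKM, so no difference was detectable at this depth.

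**Figure D2:**
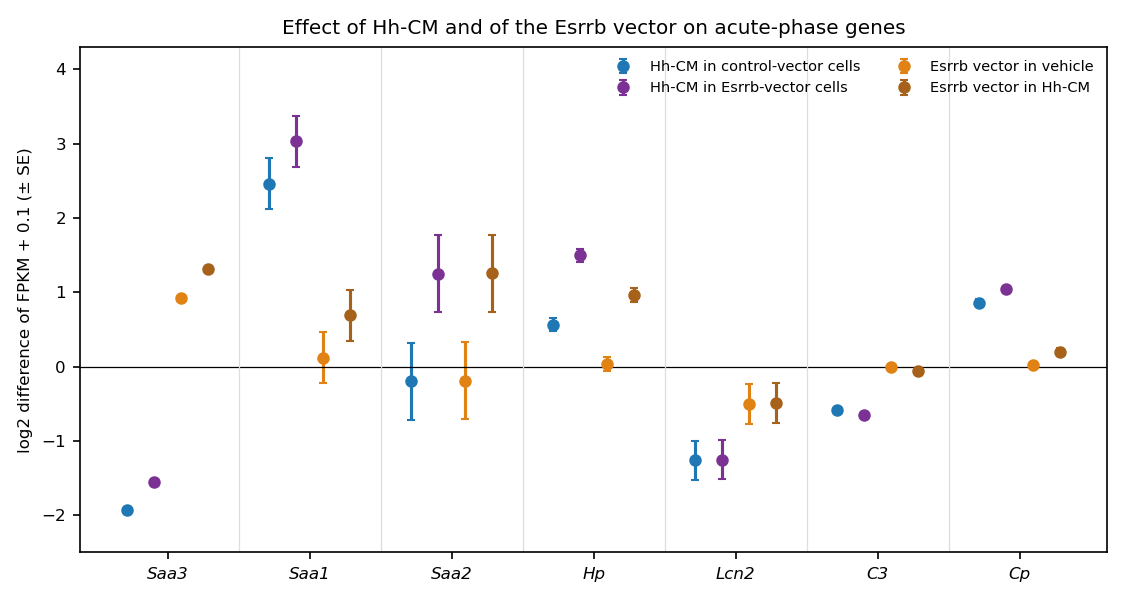
Log2 differences of FPKM + 0.1 (y axis) for 7 acute-phase genes (x axis): Hh-CM against vehicle in each cell line, and the Esrrb vector against the empty vector in each medium. Bars are standard errors of the fit. Saa3, Lcn2 and C3 lie below 0 for both Hh-CM comparisons, Saa1, Hp and Cp above, and Hp differs most between the 2 cell lines among the genes with an SE under 0.2.

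Over the 7 genes in the fit, the calls were read against all 10284 genes tested with limma on log2(FPKM + 0.1), a scale that understates the change of low genes. A call needed an adjusted p below 0.05 and a log2 difference of at least 1 in size, except that the interaction, the Hh-CM difference in Esrrb-vector cells minus that in control-vector cells, needed the adjusted p alone. From Control to Hh-CM, Saa1 was called higher and Saa3 and Lcn2 lower, 3 of 7 genes beside 2.76% of all genes. Saa1 entered the fit only through samples with Hh-CM, where it is high, so its calls are no support. With an FPKM of 1 or more required in every sample, 2 of 5 were called here, beside 185 of 9471 genes. From Esrrb to Esrrb+Hh-CM that limit gave 4 of 5, beside 363. From Esrrb to Esrrb+Hh-CM, Saa1, Hp and Cp were called higher and Saa3 and Lcn2 lower, 5 of 7 beside 4.81%. From Control to Esrrb, 0 of 7 were called beside 1.47%. There, 1 of 7 (Saa3, +0.93) had an unadjusted limma p below 0.05, beside 3340 of all genes. It also passed the adjusted p and missed only the fold limit, and without that limit 1686 of all genes were called. From Hh-CM to Esrrb+Hh-CM, 1 of 7 was called (Saa3, higher) beside 1.97%. From Control to Esrrb+Hh-CM, 4 of 7 were called (Saa1, Hp and Cp higher, Lcn2 lower) beside 6.21%. In the interaction, 1 of 7 was called (Hp) beside 1.35%. Some alternatives gave 2 of 7: a pseudocount of 1, beside 158 of 10284 genes, rescaled FPKM, beside 204 of 10285, and an overlap of at least 0.8, beside 146 of 9724. With identical loci only, 2 of 4 were called, beside 196 of 5628 genes. Hp is thus not the only member with a call in every setting. The genes were chosen on these same values, so nothing is read from these counts. Control is shared by 3 of the comparisons and Esrrb+Hh-CM by 3.

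The counts were also taken without the 2 samples whose tables share loci. Without Hh-CM replicate 2, 2 of 7 genes were called from Control to Hh-CM, because Lcn2 no longer passed (−1.23 log2 units), and 0 of 7 in the interaction. Without Esrrb replicate 1 the count from Esrrb to Esrrb+Hh-CM was 5 of 7 again, and that of the interaction was 0 of 7, with a value for Hp of 0.82. The Hh-CM difference of Saa3 was −1.94 without Hh-CM replicate 2 in control-vector cells and −1.55 without Esrrb replicate 1 in Esrrb-vector cells. Lcn2 from Esrrb to Esrrb+Hh-CM was −1.58 without Esrrb replicate 1 and −0.92 without Esrrb replicate 2. It was not called in the latter, nor without Esrrb+Hh-CM replicate 2 (−0.95).

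The other genes of the acute-phase response were taken as 5 lists. The lists too were chosen with earlier results of these data known, so their counts and p-values are a description. Of the listed genes, 60 passed the FPKM limit and were tested in the same fit. Of these, 6 were called from Control to Hh-CM (2.76% of all genes tested), 1 from Control to Esrrb (1.47% of all), 6 from Control to Esrrb+Hh-CM (6.21%), 1 from Hh-CM to Esrrb+Hh-CM (1.97%) and 8 from Esrrb to Esrrb+Hh-CM (4.81%). The single calls, 1 of 60, are near the share of all genes. None (0) was called in the interaction (1.35% of all). There, 19 of 60 had an unadjusted limma p below 0.05, beside 1849 of all 10284 genes.

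Lbp, Il6, Serpina3c and the iron exporter Slc40a1 rose with Hh-CM in control-vector cells, and Il1rl1 and Tnfrsf1b fell. Among the other plasma proteins, 18 of 24 had a locus and 4 were tested, and from Control to Hh-CM 2 of these were called higher and none lower. F3, which encodes tissue factor and is named after its values were seen, fell from 164 and 171 FPKM to 105 and 102, by 0.69 log2 units (limma adjusted p = 0.000679), short of the fold limit. The median log2 difference of the 4 was 0.73, beside 0.04 for all genes tested. Lbp encodes the lipopolysaccharide-binding protein that hands bacterial lipid to CD14. Its FPKM was 2.29 and 2.41 in Control, 10.2 and 12 in Hh-CM, 3.98 and 4.21 in Esrrb, and 14.2 and 14 in Esrrb+Hh-CM cells. Every sample with Hh-CM was above every sample with vehicle. The log2 difference for Hh-CM was 2.19 in control-vector cells (SE 0.0906, limma adjusted p = 0.000104) and 1.76 in Esrrb-vector cells (limma adjusted p = 0.000121). Serpina3c, a further A3 serpin upstream of the joined locus, rose by 1.12 from Control to Hh-CM (limma adjusted p = 0.0199) and by 1.3 from Control to Esrrb+Hh-CM (limma adjusted p = 0.00635). It was near 1 FPKM, with 0.63 to 1.11 in vehicle and 1.66 to 2.11 in Hh-CM, and its span lies inside the joined locus of Hh-CM replicate 1 and Esrrb replicate 2. Its first call was lost without Control replicate 1 (0.92), without Hh-CM replicate 1 (1.16) or without Hh-CM replicate 2 (1.08).

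In the IL-6 family and STAT3 signalling list, 18 of 22 genes were tested and 1, Il6, was called. Il6 encodes interleukin-6, the main inducer of hepatic acute-phase genes. Its FPKM was 1.91 and 1.26 in Control, 5.91 and 5.04 in Hh-CM, 2.16 and 2.83 in Esrrb, and 8.74 and 7.7 in Esrrb+Hh-CM cells. The samples with Hh-CM were all above those with vehicle, and both Esrrb groups lay above their empty-vector counterparts. It rose with Hh-CM by 1.75 in control-vector cells (SE 0.225, limma adjusted p = 0.005) and by 1.69 in Esrrb-vector cells (limma adjusted p = 0.00386). With the Esrrb vector the log2 differences were 0.64 and 0.58, and neither was called (limma adjusted p = 0.112 and 0.131). The median of the 18 genes was 0.15 from Control to Hh-CM and 0.44 from Control to Esrrb, beside 0.04 and 0.05 for all genes. Tyk2, a Janus kinase singled out after its values were seen, had an FPKM of 50.3 in Hh-CM replicate 1 and of 4 to 5.68 in the other 7 samples. Without Hh-CM replicate 2 it was called from Control to Hh-CM (3.45), from Hh-CM to Esrrb+Hh-CM (−3.37) and in the interaction (−3.43), and with both samples it was not.

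In the list of IL-1, TNF, Toll-like receptor and NF-kB signalling, 22 of 27 genes were tested, and from Control to Hh-CM 2 were called lower and none higher. Below the fold limit, Nfkb2 and Irak3 rose by 0.65 and 0.47 (limma adjusted p = 0.0333 and 0.0353). Nfkbiz, Nfkbia, Nfkb1, Tlr2 and Il1rap fell by 0.9, 0.52, 0.46, 0.3 and 0.28 (limma adjusted p from 0.000534 to 0.00782). All of these except Irak3 and Nfkbiz are named after their values were seen. Il1rl1 encodes ST2, the receptor of interleukin-33, and had an FPKM of 138 and 138 in Control, 46.7 and 44.4 in Hh-CM, 192 and 199 in Esrrb, and 60.4 and 55.7 in Esrrb+Hh-CM cells. The 4 groups did not overlap and stood in the same order as those of Saa3. It fell by 1.6 with Hh-CM in control-vector cells (SE 0.0511, limma adjusted p = 4.12e-05) and by 1.75 in Esrrb-vector cells (limma adjusted p = 2.62e-05). Tnfrsf1b, a TNF receptor, fell by 1.02 and 1.2 (limma adjusted p = 0.000781 and 0.000273), from 9.19 to 11.6 in vehicle to 4.61 to 5.09 in Hh-CM. The first of these was not called without Control replicate 1 (−0.95) or without Hh-CM replicate 2 (−0.99). Nfkbiz encodes an atypical inhibitor-family protein that serves as a cofactor of NF-kB at acute-phase genes. It fell by 1 log2 unit from Esrrb to Esrrb+Hh-CM (limma adjusted p = 0.000225), a value at the limit that was lost without Esrrb replicate 2 (−0.97) or Esrrb+Hh-CM replicate 1 (−0.96). From Control to Esrrb+Hh-CM it fell by 1.02, which was lost without Control replicate 2 (−0.96) or Esrrb+Hh-CM replicate 1 (−0.97). Irak3, a brake on Toll-like receptor signalling, rose by 1.02 in the same comparison (limma adjusted p = 0.00125), which was lost without Control replicate 1 (0.97) or Esrrb+Hh-CM replicate 1 (0.98).

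Of the iron, copper and haemoglobin genes 13 of 20 were tested. Slc40a1 encodes ferroportin, the iron exporter that works with ferroxidases. Its FPKM was 6.21 and 5.19 in Control, 12 and 11.4 in Hh-CM, 1.34 and 1.5 in Esrrb, and 4.13 and 3.04 in Esrrb+Hh-CM cells. The 4 groups did not overlap, with Hh-CM highest and Esrrb lowest. It fell with the Esrrb vector by 1.93 in vehicle (SE 0.166, limma adjusted p = 0.00204) and by 1.69 in Hh-CM (limma adjusted p = 0.00284), the one gene of the lists called in either comparison. It rose with Hh-CM by 1.03 in control-vector cells (limma adjusted p = 0.0109) and by 1.27 in Esrrb-vector cells (limma adjusted p = 0.00366). The former was lost without Control replicate 2 (0.9), Hh-CM replicate 1 (0.99) or Hh-CM replicate 2 (1.07). Fth1, the ferritin heavy chain, rose from 3267 and 3286 in Esrrb to 7455 and 6954 in Esrrb+Hh-CM cells, by 1.14 (limma adjusted p = 5.48e-05), which was lost with no FPKM limit (limma adjusted p = 0.122). Processed copies of Fth1 in the genome may share its reads. Tfrc, the transferrin receptor, rose from 6.87 and 6.46 to 14.7 and 14.1 in the same comparison, by 1.1 (limma adjusted p = 0.00031). Against Control these 2 genes differed with Hh-CM by 0.83 and 0.57, below the fold limit.

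Of the complement list, 15 of 19 genes had a locus, and 3 passed the FPKM limit, none of them called. Their median log2 difference was −0.33 from Control to Hh-CM and −0.79 from Control to Esrrb+Hh-CM. In the latter all 3 had an unadjusted limma p below 0.05, beside 4655 of all 10284 genes. C1rl, C1s and Masp1, named after their values were seen, missed only the fold limit there (limma adjusted p = 0.00499, 0.0112 and 0.000559). Without that limit 3604 of all genes were called.

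**Figure D3:**
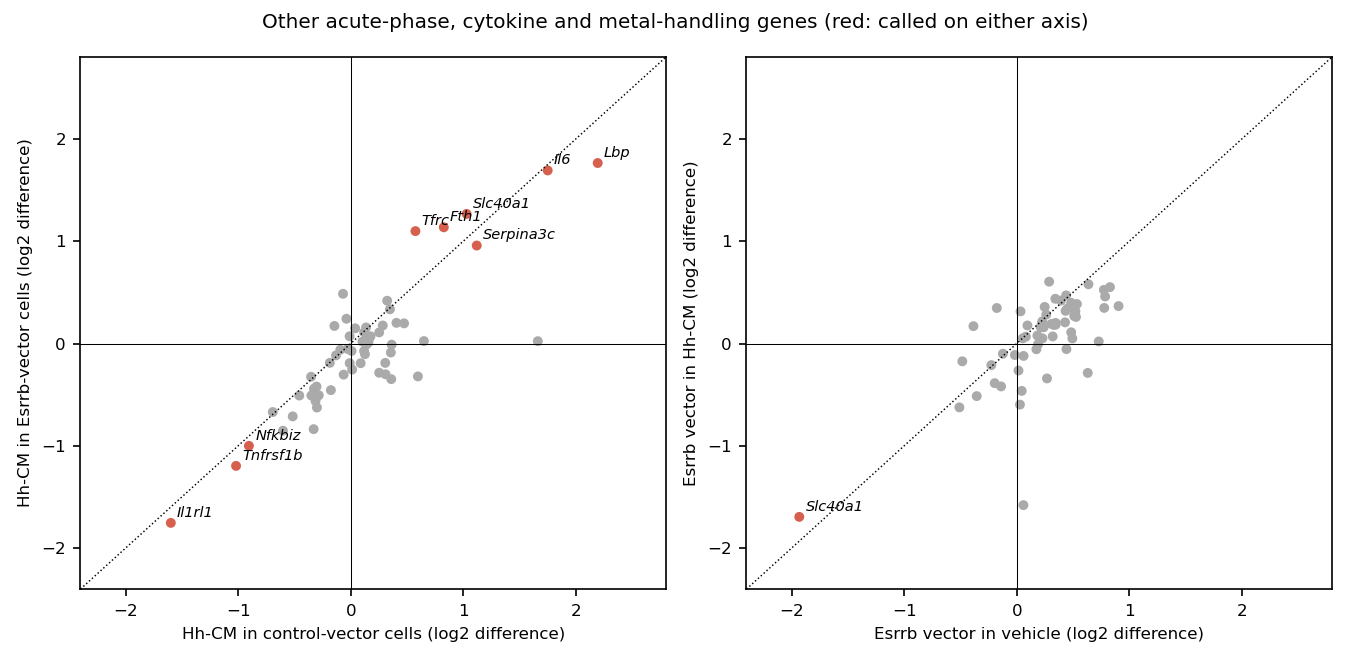
Log2 differences of the 60 other tested genes. Left: Hh-CM against vehicle in control-vector cells (x) and in Esrrb-vector cells (y). Right: Esrrb vector against empty vector in vehicle (x) and in Hh-CM (y). Red points were called on either axis and the dotted line marks equal values. Lbp and Il6 lie far up and Il1rl1 far down on the left, and Slc40a1 stands alone on the right. The grey point at 1.66 on the left and −1.58 on the right is Tyk2.

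For the 3 most abundant members, the genes with the most similar pattern were taken as those with the smallest root mean square difference of centred log2 values over the 8 samples, among 10282 other tested genes. Closest to Saa3 were Fam110c (0.134), Dpt (0.251), which encodes the matrix protein dermatopontin, and Nid2 (0.292), a basement membrane nidogen, against a median of 1.06 for all genes. Fam110c had mean FPKM of 7.8 in Esrrb, 3.36 in Control, 2.4 in Esrrb+Hh-CM and 1.02 in Hh-CM cells, the order found for Saa3 at a far lower level. For Dpt the means in the same sequence of groups were 151, 72.7, 33.1 and 16, with a drop below Control in Esrrb+Hh-CM cells that was larger than that of Saa3. Closest to C3 were Serpinf1 (0.0515), which encodes the secreted serpin PEDF, Atp13a3 (0.0554) and Rgs3 (0.057), against a median of 0.367. Closest to Cp were Ept1 (0.0596), Jmjd1c (0.0723) and Pdxk (0.0766), against a median of 0.489. C3 and Cp vary less than Saa3 over the samples, so their distances are smaller for all genes.

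**Figure D4:**
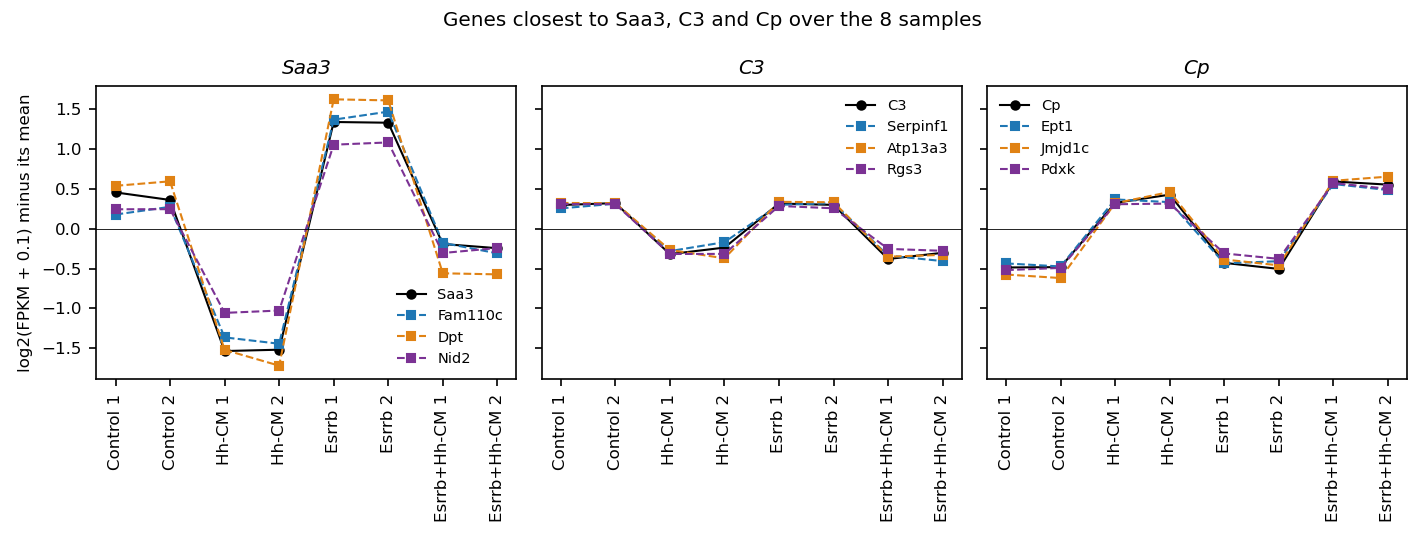
Log2(FPKM + 0.1) minus its mean over the 8 samples (y axes) in each sample (x axes) for Saa3, C3 and Cp (solid black) and the 3 closest genes of each (dashed). Saa3, Fam110c, Dpt and Nid2 are lowest in the Hh-CM and highest in the Esrrb samples, and the C3 and Cp sets split the samples by Hh-CM in opposite directions.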

How the data were processed

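The 8 NIH3T3 RNA-Seq samples were grouped by their labels, 2 per group. The values deposited by the authors are FPKM, obtained with Cufflinks, sample by sample, after trimming (FASTX-Toolkit) and alignment to mm9 (Bowtie2, TopHat2). The submitters' processing notes also name Cuffdiff. The paper calls them RPKM. The files hold no read counts but give a confidence interval with each FPKM. The fit did not use these intervals, so the counting error of low genes was not estimated from them.

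Loci were given to GENCODE vM1 genes by overlap. Genes with FPKM of 1 or more in 2 or more samples were fitted with limma 3.58.1 (R 4.3.3) on log2(FPKM + 0.1), with a variance trend, 1 mean per group and Benjamini-Hochberg adjustment. The fit was tested on simulated data. An exact permutation of 2 against 2 samples could not pass any threshold and was not used. Other steps used Python 3.11.15, pandas 2.3.3, numpy 2.4.6, matplotlib 3.10.9 and Biopython 1.88.

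The acute-phase genes and all lists were chosen with earlier results of these data known. Named genes are the 10 members, genes of each list called at least once (at most 8 per list), the 3 nearest patterns of the 3 most abundant members, and Esrrb, Gli1 and Ptch1. Alternatives were pseudocounts of 1 and 0.001, other FPKM limits, a replicate block, fewer groups in the fit, rescaling, no trend, other locus matching, no fold limit, and each sample left out.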

Additional observations from a re-analysis of the deposited data

Results flagged for a closer look

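Groups of 2 samples allow no test for a sample that stands apart. Hp had a larger Hh-CM difference in Esrrb-vector than in control-vector cells, by 0.93 log2 units, a call kept in only 9 of 18 alternatives. Tfrc lay lower with the Esrrb vector in vehicle (6.46 and 6.87 against 7.26 and 7.84 FPKM) and higher with it in Hh-CM (14.1 and 14.7 against 10.8 and 11.8), in every pair of samples. The 2 effects differed by 0.52 log2 units, which did not pass the limma interaction test (adjusted p = 0.0813).

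Outside the values used, short assembled loci of 182 to 322 bases lay near the 3′ end of Cp. Their FPKM was 46.1 and 30.7 in the Esrrb+Hh-CM samples, a mean of 38.4, 14.5 in Esrrb replicate 1 and 9.16 in Control replicate 2. The other 4 samples list no such locus. These values are not part of the Cp level, and their part in its differences was not tested.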

How the results depend on the processing

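With a pseudocount of 1, pathway genes called numbered 3 from Control to Hh-CM and 3 from Control to Esrrb+Hh-CM, beside 179 and 486 of all 10284 genes. With identical loci only (36 genes tested) they numbered 3 in the latter, beside 400 of all 5628 genes. Without the fold limit they were 23 of 60 from Control to Hh-CM, 24 from Control to Esrrb and 37 from Control to Esrrb+Hh-CM. They were 28 from Hh-CM to Esrrb+Hh-CM and 27 from Esrrb to Esrrb+Hh-CM. In the same order, 1854, 1686, 3604, 1948 and 2407 of all 10284 genes were called. The replicate block gave 6, 1, 6, 1 and 8 in the order of the report and 0 in the interaction. Samples with the same number deviated with a correlation of 0.00546 on average (−0.0596 to 0.0623), so the numbers do not pair them. Leaving out 1 sample gave 4 to 6 from Control to Hh-CM, 1 to 1 from Control to Esrrb, 6 to 6 from Control to Esrrb+Hh-CM, 1 to 2 from Hh-CM to Esrrb+Hh-CM, 7 to 9 from Esrrb to Esrrb+Hh-CM and 0 to 1 in the interaction. Without Hh-CM replicate 2 the 1 was Tyk2. The 2 were Slc40a1 with Tyk2 without Hh-CM replicate 2, or with Nfkbib (1.07) without Esrrb+Hh-CM replicate 2.

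Of 612 recomputed member differences, 46 moved by more than the spread between replicates, at most by 1.07 log2 units, and no called difference changed sign. The call of Hp in the interaction was kept in 9 of 18 alternatives, with values from 0.82 to 1.04. It was lost with the replicate block, with no variance trend and with no FPKM limit. It was also lost without either Control sample, either Hh-CM sample, Esrrb replicate 1 or Esrrb+Hh-CM replicate 1. That of Lcn2 from Control to Hh-CM was lost without any 1 of the 4 compared samples, with the replicate block and with no FPKM limit (−1.31 to −1.22 in these settings). That of Lcn2 from Esrrb to Esrrb+Hh-CM was lost without Esrrb replicate 2 or Esrrb+Hh-CM replicate 2, with only the compared groups in the fit and with no FPKM limit, and that of Cp from Control to Esrrb+Hh-CM with rescaled FPKM (0.98). With a pseudocount of 1, Serpina3c, Nfkbiz and Irak3 lost each of their calls, Tnfrsf1b that from Control to Hh-CM, and Slc40a1 those with Hh-CM in both cell lines. With rescaled FPKM, Irak3 lost its call and Slc40a1 that from Control to Hh-CM, and Serpina3c from Control to Hh-CM and Fth1 lost theirs with no FPKM limit. Low FPKM limits Saa1, Saa2, Orm1 and Serpina3c most.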
